A study of Mus musculus with 5 samples.

Results

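A set of 6 genes, of 23172 across the files, was followed through the epithelium and stroma of chemotherapy-treated colon tumors: Ly6a, Clu, Anxa1, Ctgf, Cyr61 and Msln. They were chosen by name as markers of fetal-like regeneration and of YAP activity, with earlier results of these data known. All 6 were counted in the 4 tumor libraries, and 5 in the library of normal stroma, where Msln was not analysed. Their levels were measured by library in columnar and squamous epithelial cells, against Lgr5 in columnar cells, and in stromal cells.

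The tumors were induced in the distal colon of wild-type mice with azoxymethane and dextran sodium sulfate (AOM/DSS), an inflammation-driven model of colorectal cancer. The mice then received irinotecan and 5-fluorouracil (5-FU) at 50 mg/kg each, with 5 days of rest, for 3 cycles. Tumors were taken at day 1 (2 libraries, early), day 3 and day 6 (1 library each, together late), and single cells were profiled by inDrop, which counts unique molecular identifiers (UMIs). The study's methods name C57BL/6J and C57BL/6J;129 mixed backgrounds and both sexes without saying which library had which, and give an age range only for the start of experiments. No untreated tumor was analysed here, so every level below is one under chemotherapy, and the sources differ on the day from which the days count. The fifth library came from the untreated normal colon of a wild-type mouse, dissociated to enrich stroma. Kept cells numbered 748 and 2403 at day 1, 1419 at day 3, 2826 at day 6 and 1095 in the stroma library, with medians of 2903 to 3601 UMIs. Different index structures were used, single for the first day 1 replicate and for day 3, dual for the other libraries, so that each structure held 1 early and 1 late tumor library. Values of the 4 tumor libraries are given below in the order of the first and then the second day 1 replicate, day 3 and day 6. Between 4 and 42 cell barcodes were shared by a pair of libraries.

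The intestinal epithelium is normally renewed from Lgr5-expressing stem cells driven by WNT signals. After injury, colitis or irradiation, epithelial cells can take up a program that resembles the fetal intestine, marked by Ly6a (the surface protein Sca-1) and Anxa1 (the phospholipid-binding protein annexin A1) and, in the revival stem cells of the small intestine, by Clu (the secreted chaperone clusterin). Entry into this program depends on YAP, the transcriptional co-activator restrained by Hippo kinases, which acts on DNA through TEAD factors. Ctgf (also Ccn2) and Cyr61 (also Ccn1) are secreted matricellular proteins and standard direct targets of YAP and TEAD, and Msln (mesothelin) is a surface glycoprotein best known from mesothelial cells.

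The windows of 250 bases before to 50 bases after the gene start are shown for the 2 genes with an entry in the RefSeq promoter table (GRCm38.p6), since TEAD binding is the step that links YAP to such genes. The motifs searched on both strands were GGAATG for TEAD and TGANTCA for AP-1, and capitals mark every match. Both windows are on the minus strand and are written 5′ to 3′ along the gene, at chr3:145649936-145650235 for Cyr61 and chr19:20390622-20390921 for Anxa1.
Cyr61: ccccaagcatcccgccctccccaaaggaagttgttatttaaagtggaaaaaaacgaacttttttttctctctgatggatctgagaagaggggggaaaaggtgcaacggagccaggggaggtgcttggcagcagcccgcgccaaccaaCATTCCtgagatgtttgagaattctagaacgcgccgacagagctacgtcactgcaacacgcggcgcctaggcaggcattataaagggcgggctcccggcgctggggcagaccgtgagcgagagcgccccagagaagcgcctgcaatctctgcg
Anxa1: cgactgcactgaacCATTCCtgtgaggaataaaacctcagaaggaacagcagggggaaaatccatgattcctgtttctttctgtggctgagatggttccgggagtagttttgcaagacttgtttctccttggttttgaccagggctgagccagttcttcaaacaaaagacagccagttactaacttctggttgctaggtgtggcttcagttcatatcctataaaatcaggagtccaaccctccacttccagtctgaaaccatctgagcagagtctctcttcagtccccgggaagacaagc
Each window held 1 TEAD match, both on the strand opposite to the gene, starting 103 bases before the RefSeq start of Cyr61 and 236 bases before that of Anxa1. The GENCODE annotation places the 5′ end of Anxa1 at chr19:20390944, upstream of the whole window, so this distance holds for the RefSeq start only. A TEAD match was present in 14.7% of all 32851 promoter windows of this length. Neither window held an AP-1 match, which 7.81% of windows did.

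Columnar-like cells were clusters that carried columnar markers such as Krt8, Lgals4 and Cldn7, and squamous-like cells were clusters that carried Krt5, Krt14, Trp63 and other stratified markers. The 4 tumor libraries held 270, 1237, 881 and 1369 columnar-like cells, and 50, 189, 288 and 730 squamous-like cells. The 14 columnar markers counted in the files summed to 9677 to 23291 CPM (UMIs per 1000000 of the summed cells) in columnar-like and 2834 to 9002 CPM in squamous-like cells, and the 15 squamous markers to 1163 to 3870 CPM and 25228 to 48692 CPM. The values of a gene by library are levels in CPM, on counts summed over the cells of that class.

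Ly6a and Anxa1 were the abundant members. Ly6a in columnar-like cells stood at 936 and 1361 CPM at day 1, 1425 at day 3 and 4159 at day 6. In squamous-like cells it stood at 1079 and 1657 CPM at day 1, 1007 at day 3 and 1964 at day 6. The day 6 library was the highest for both classes, but only in columnar-like cells did both late libraries exceed both early ones. The pooled non-epithelial cells carried Ly6a at 923, 797, 900 and 1867 CPM in the same order, from 44.9% to 98.6% of the columnar level. Free RNA may limit how these levels can be read, but its part was not tested. The pooled cells include types that may hold Ly6a of their own, such as endothelial-like cells. The columnar level over the non-epithelial level was 1.01, 1.71, 1.58 and 2.23 in the 4 libraries. Neighbouring Ly6 genes can share reads with Ly6a: Ly6c1 in columnar-like cells stood at 90.4, 77.9, 388 and 565 CPM.

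Anxa1 in columnar-like cells stood at 604 and 1226 CPM at day 1, 587 at day 3 and 1229 at day 6. In squamous-like cells it reached 1910 and 8650 CPM at day 1, 847 at day 3 and 4543 at day 6. Squamous-like cells were higher in every library, and both classes were higher in the 2 dual index libraries than in the 2 single index libraries. The pooled non-epithelial cells held 479 to 776 CPM, with neutrophil-like cells, a known source of annexin A1, highest at 526 to 2030 CPM.

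Clu was scarce at day 6. In columnar-like cells it stood at 231 and 138 CPM at day 1, 243 at day 3 and 11.7 at day 6, and in squamous-like cells at 38.6, 59.9, 171 and 8.03 CPM. The pooled non-epithelial cells were lowest at day 6 too, with 98.8, 81.6, 203 and 23.8 CPM.

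Ctgf, Cyr61 and Msln were rare in epithelial cells. Ctgf in columnar-like cells stood at 25.0, 34.5, 32.1 and 1.52 CPM, the last from 13 UMIs. In squamous-like cells Ctgf stood at 8.28, 19.3, 29.6 and 26.3 CPM, so that day 6 was low in columnar-like but not in squamous-like cells. Cyr61 in columnar-like cells stood at 13.9, 13.0, 11 and 1.76 CPM, and in squamous-like cells at 22.1, 76.4, 11 and 1.52 CPM. Msln in columnar-like cells stood at 12.3, 17.8, 23.4 and 0.468 CPM, and the 4 day 6 UMIs give an exact 95% Poisson interval of 0.128 to 1.20 CPM, which covers counting error only. In squamous-like cells Msln stood at 2.76, 5.80, 9.30 and 0.434 CPM. Ctgf and Cyr61 were higher in the pooled non-epithelial than in columnar-like cells of every library, at 11.6 to 119 CPM for Ctgf and 37.4 to 80.5 CPM for Cyr61. Their highest type in each treated library was fibroblast-like, endothelial-like or lymphatic endothelial-like, with Cyr61 at 570 CPM in the fibroblast-like cells of day 1 replicate 1 and Ctgf at 511 CPM in its endothelial-like cells (14 and 12 cells).

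**Figure D1:**
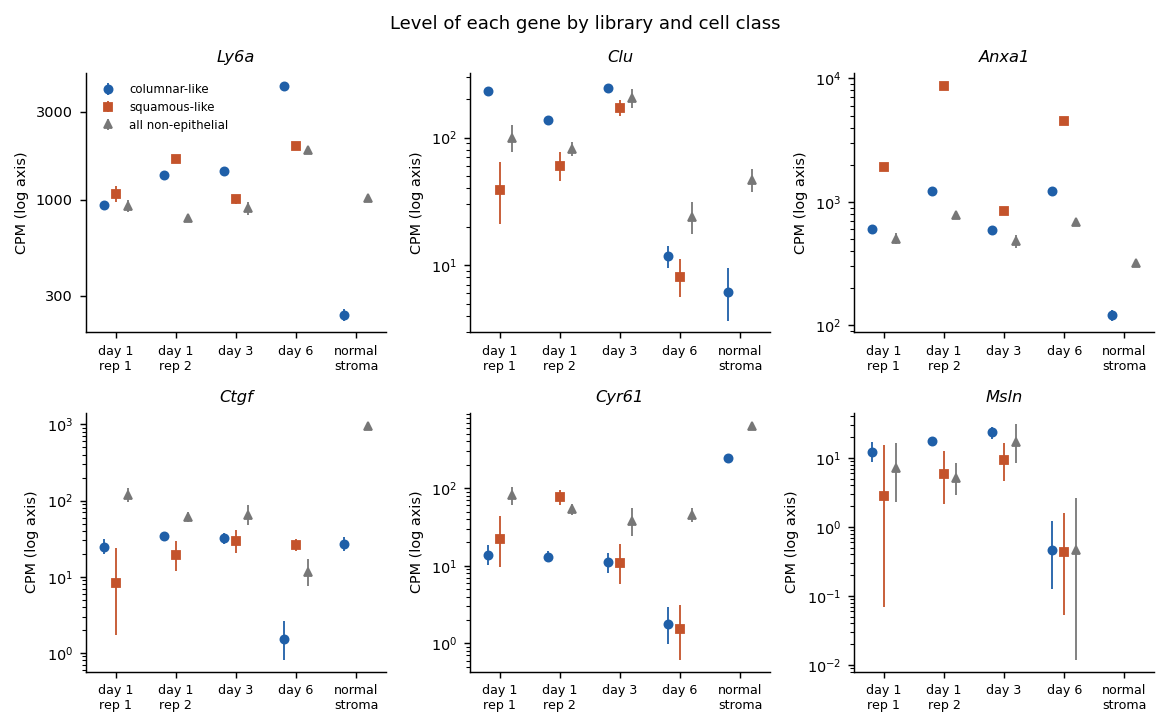
CPM (log axis) of each gene in columnar-like (blue), squamous-like (orange) and pooled non-epithelial cells (grey) of the 4 treated libraries and the normal stroma library, with exact 95% Poisson intervals. Anxa1 was highest in squamous-like cells of every treated library, and among the treated libraries Clu and Msln were lowest at day 6 in columnar-like, squamous-like and non-epithelial cells.

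The change over the treatment course was compared on the library sums, late against early, with 2 libraries in each group. The p-values measure only the spread between these libraries. In columnar-like cells, none of the 6 members passed an adjusted p of 0.05 by edgeR, where 0% of 13502 genes passed in either direction. No gene passed in that fit, although 2273 had an unadjusted p under 0.05 and DESeq2 called 695. On CPM scaled by TMM as in the fit, Ly6a was the only member whose groups did not overlap. On this scale 50.7% of all genes tested did not overlap in one direction or the other. The log2 fold change of Ly6a was 1.73 ± 0.67 (SE, n = 2 against 2, edgeR adjusted p = 0.28). In the plain CPM above, Cyr61 did not overlap either, at 13.9 and 13.0 early against 11 and 1.76 late. Lgr5, for comparison, changed by a log2 fold of -1.91 ± 0.71 (edgeR adjusted p = 0.264), from 401 and 244 CPM at day 1 to 109 at day 3 and 24.1 at day 6, again without overlap. With the index structure as a block, which sets each late library against the early one of the same structure, edgeR called 506 genes, among them Lgr5 (-2.19 ± 0.40, adjusted p = 0.0337) but not Ly6a (1.52 ± 0.46, adjusted p = 0.0935).

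On the TMM scale the other members split by library rather than by group. Clu changed by a log2 fold of -0.18 ± 1.13, Ctgf by -0.49 ± 1.10, Cyr61 by -0.74 ± 0.80, Msln by -0.02 ± 1.28 and Anxa1 by 0.43 ± 0.59, with edgeR adjusted p from 0.66 to 0.998. Within the dual index libraries, day 6 minus day 1 replicate 2 was -2.98 for Clu, -3.43 for Ctgf, -1.96 for Cyr61 and -3.37 for Msln on the log2(CPM + 1) scale, with libraries scaled by TMM as in the fit and so not the plain CPM above. Within the single index libraries, day 3 minus day 1 replicate 1 was 0.40, 0.67, -0.01 and 1.19 for the same genes. Ly6a was higher late within both structures, by 2.11 and 0.94, and Anxa1 by 0.50 and 0.29 on this scale, although in plain CPM Anxa1 was lower at day 3 (587) than in day 1 replicate 1 (604). Without the day 3 library, edgeR called Clu (log2 fold change -3.50, adjusted p = 0.00111), Ctgf (-3.81), Cyr61 (-2.45) and Msln (-4.50) lower and Ly6a (2.34, adjusted p = 0.0121) higher, which describes day 6 alone against day 1 and takes the spread from the day 1 libraries. Without the day 6 library, Ly6a changed by 0.67 (adjusted p = 0.441), and without cluster 2, a columnar-like cluster described below, by 1.02 (adjusted p = 0.77). Ly6a and Lgr5 passed without the filter on low counts (adjusted p = 0.0424 and 0.00276).

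In squamous-like cells, 5 of the 6 members had enough counts to be tested, and Msln did not. None passed in edgeR, where again 0% of 9797 genes passed, 395 had an unadjusted p under 0.05 and DESeq2 called 19. Cyr61 was lower late by a log2 fold of -3.17 ± 0.96 (edgeR adjusted p = 0.998, unadjusted p = 0.00843) and Ctgf higher by 1.02 ± 0.60 (edgeR adjusted p = 0.998), and these 2 members did not overlap between groups, as for 31.8% of all genes. Cyr61 passed without the filter on low counts (log2 fold change -3.13, edgeR adjusted p = 0.00202). Its log2 fold change was -3.72 without the first day 1 replicate and -4.99 without day 3, each with 1 library left in a group. The early level of Cyr61 differed between the day 1 replicates, at 22.1 and 76.4 CPM. Ly6a changed by 0.24 ± 0.64, Clu by 0.98 ± 1.05 and Anxa1 by -0.89 ± 0.96.

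Whether the course differed between the classes was tested as an interaction, the squamous change minus the columnar change, with the library as a block. None of the 6 members passed in edgeR, where 0.0371% of 13473 genes did (Calcb, Col17a1, Ifitm1, Krt5 and Pitx1, named because they are few). Ly6a had a difference of -1.33 ± 0.37 (edgeR adjusted p = 0.264), Anxa1 -1.33 ± 0.51 (0.455), Cyr61 -2.24 ± 0.74 (0.373) and Ctgf 2.50 ± 1.12 (0.526). Clu stood at 0.96 ± 0.49 and Msln at 0.40 ± 0.86. Without day 3, the difference was 4.68 for Ctgf and -1.73 for Ly6a, and without day 6 it was -1.89 for Anxa1. Each of these fits leaves 1 late library, so its spread comes from the day 1 libraries alone. The columnar Ctgf level of day 6 was only 1.52 CPM. Without the filter on low counts, Ly6a (0.0154), Anxa1 (0.0161), Ctgf (0.00219) and Cyr61 (0.0356) passed.

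The related gene lists, which hold no member, gave no calls in either late against early comparison or in the interaction. In columnar-like cells the medians of the log2 fold changes were -0.30 over 22 YAP targets, -0.51 over 17 Hippo pathway genes, -0.19 over 19 stem and WNT genes, 0.49 over 27 fetal-like genes and 0.48 over 18 immediate early genes, beside 0.02 over all genes tested. The smallest p values there belonged to Thbs1 (-1.75 ± 0.39) and Tead1 (-1.41 ± 0.34) among YAP targets and their factors, Vgll4 (-1.26 ± 0.38) and Amot (-1.80 ± 0.61) in the Hippo pathway, and Ly6c1 (2.93 ± 0.43) and Ly6d (1.66 ± 0.35) in the fetal-like list. Among WNT feedback genes Znrf3 stood at -2.43 ± 0.45 and Nkd1 at -3.03 ± 0.62, and among immediate early genes Zfp36 at 1.16 ± 0.38 and Klf6 at 1.21 ± 0.43, with edgeR adjusted p of 0.172 to 0.25 over these 10 genes. In squamous-like cells the smallest p values were those of Thbs1 (-1.76 ± 0.78), Igfbp3 (-1.41 ± 0.70), Mob1b (-0.94 ± 0.58), Tead4 (-1.05 ± 0.80), Ptgs2 (-3.51 ± 0.99), Krt4 (3.10 ± 0.98), Nkd1 (-2.42 ± 0.89), Ephb2 (1.62 ± 0.71), Dusp1 (-1.40 ± 0.52) and Fosl1 (-1.57 ± 0.67), all at an edgeR adjusted p of 0.998. In the interaction they were those of Ptpn14 (2.34 ± 0.63), Igfbp3 (-2.12 ± 0.58), Vgll4 (1.18 ± 0.33), Tead2 (1.62 ± 0.50), Ly6d (-1.56 ± 0.39), Ly6c1 (-1.92 ± 0.55), Lgr5 (2.92 ± 0.48), Rnf43 (1.70 ± 0.37), Klf6 (-1.33 ± 0.50) and Zfp36 (-0.88 ± 0.36), with edgeR adjusted p of 0.0934 to 0.482.

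Squamous-like and columnar-like cells of the same library were compared with the library as a block (n = 4 of each). Anxa1 was higher in squamous-like cells, by a log2 fold of 1.75 ± 0.36 (edgeR adjusted p = 0.00986), and 7.67% of 13473 genes were called higher. Its ratio of squamous to columnar CPM was 3.16 and 7.06 at day 1, 1.44 at day 3 and 3.70 at day 6. Without day 1 replicate 1 the adjusted p was 0.0582 at a fold of 1.81. Anxa1 was uneven among squamous-like clusters, from 791 CPM in cluster 9, mostly from day 3, to 8431 CPM in cluster 10, mostly from day 6. Cluster 8, also mostly from day 6, held 1941 CPM, and columnar-like cluster 7, described below, held 3707 CPM. Clu was lower by -1.08 ± 0.30 (edgeR adjusted p = 0.0347) and Msln by -1.30 ± 0.39 (edgeR adjusted p = 0.0492), and 9.26% of genes were called lower. Both calls were lost without either day 1 library, with adjusted p of 0.113 and 0.127 for Clu and 0.14 and 0.189 for Msln, and the Msln call also without day 3 (0.223) and in DESeq2 (0.0971). The Msln call rests on few counts, with 6, 10, 4, 0 and 0 UMIs in squamous-like clusters 8, 9, 10, 18 and 21. Without cluster 1, another columnar-like cluster described below, the adjusted p of Clu was 0.147. Squamous-like cells held less Clu than the pooled non-epithelial cells in every treated library.

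Ly6a did not pass between the classes, at a log2 fold of -0.24 ± 0.30 (edgeR adjusted p = 0.669), and its squamous level was above the columnar one at day 1 and below it at day 3 and day 6. Cyr61 stood at 1.03 ± 0.54 (edgeR adjusted p = 0.243) and Ctgf at 0.48 ± 0.71 (edgeR adjusted p = 0.728). The Ctgf ratio of squamous to columnar CPM was 0.332, 0.560 and 0.922 up to day 3 and 17.3 at day 6, and that of Cyr61 was 5.86 in day 1 replicate 2 and 0.866 to 1.58 in the other libraries. The 10 fibroblast markers summed to 186 to 316 CPM in squamous-like and 68.4 to 192 CPM in columnar-like sums, higher in the squamous-like sum of every library, with up to 3 of them at 0 in a sum. The 8 endothelial markers summed to 32.8 to 82.8 and 21.0 to 53.4 CPM, with up to 2 at 0. Their part in Ctgf and Cyr61 was not tested.

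Of 22 tested YAP targets, 7 were higher and 3 lower in squamous-like cells, with a median log2 fold of 0.63 beside -0.08 over all genes. Those higher included the secreted or surface proteins Igfbp3 (4.78 ± 0.53), Fjx1 (4.88 ± 0.50), Tgfb2 (2.89 ± 0.41) and the receptor kinase Axl (2.66 ± 0.40), and those lower were the ecto-nucleotidase Nt5e (-2.45 ± 0.39), Dock5 (-1.89 ± 0.36) and tissue factor F3 (-1.44 ± 0.22). In the fetal-like list 10 of 27 were higher, led by Ecm1 (4.20 ± 0.42), the gap junction protein Gja1 (3.55 ± 0.36) and Ly6d (3.53 ± 0.37), and Cxadr was lower (-1.02 ± 0.18). Several of these, Ly6d and Krt4 among them, are also ordinary genes of stratified epithelium. In the stem and WNT list 12 of 19 were lower and 0 higher, led by Nkd1 (-2.42 ± 0.26), Axin2 (-2.02 ± 0.29), Rnf43 (-1.94 ± 0.35) and Ephb2 (-1.73 ± 0.29), which are WNT targets. Lgr5 itself stood at -1.76 ± 0.55 (edgeR adjusted p = 0.0591). The Hippo kinase Stk4 was the 1 called gene of 16 in its pathway (-0.78 ± 0.18), and in the immediate early list the heat shock genes Hspa1a (3.38 ± 0.33) and Hspa1b (2.84 ± 0.28) were higher and Jun (-1.05 ± 0.31) lower.

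**Figure D2:**
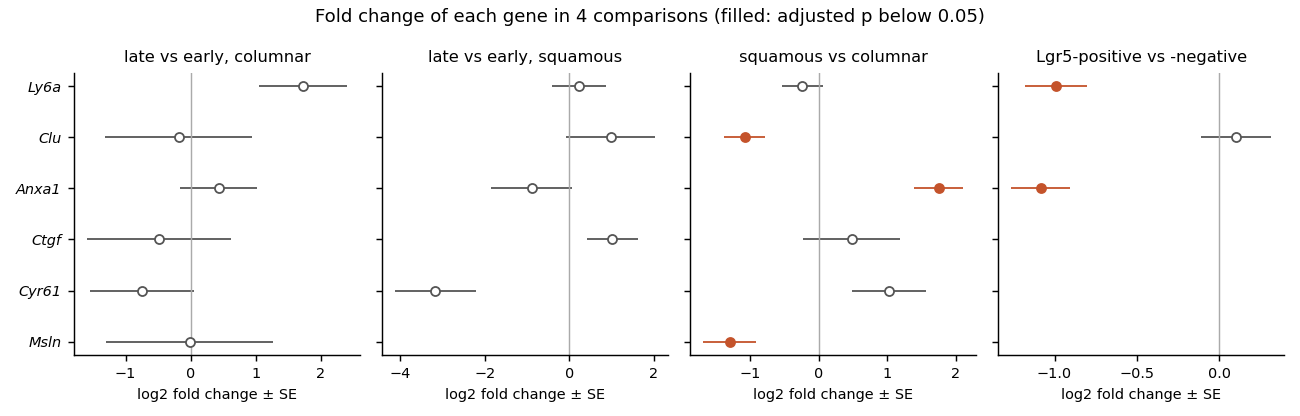
Log2 fold change and standard error of each gene in 4 comparisons fitted by edgeR on library sums (2 early and 2 late libraries, 4 pairs of squamous and columnar sums, and 3 pairs of Lgr5-positive and Lgr5-negative sums), with filled symbols for an adjusted p below 0.05 and no symbol where a gene had too few counts. Anxa1 at 1.75, Clu at -1.08 and Msln at -1.30 in the squamous comparison and Ly6a at -0.99 and Anxa1 at -1.08 in the Lgr5 comparison were called, and none was called late against early.

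Whether the members exclude Lgr5 was first described over the 9 columnar-like clusters, which were made without the members, Lgr5 or the gene lists. Cluster 2 (535 cells, of which 65.0% came from the second day 1 replicate, with the WNT antagonist genes Wif1, Dkk2 and Nkd1 among its leading genes) had the highest Lgr5, 507 CPM, and the lowest Ly6a, 411 CPM, and Anxa1, 330 CPM, with Clu at 108 CPM, the median of the 9 clusters. It carried only 4 of the columnar markers above their non-epithelial level, so its columnar name is the weakest. Cluster 5 (405 cells, 99.0% from day 6, led by inflammatory and interferon genes such as Gbp2, Saa1, Nos2 and Ido1) had the lowest Lgr5, 4.78 CPM, and the highest Ly6a, 6357 CPM. Cluster 7 (401 cells, 95.8% from the second day 1 replicate, with Clca4a, F3 and Emp1 among its leading genes) had the highest Anxa1, Ctgf and Msln, at 3707, 90.4 and 57.3 CPM, beside 26.2 CPM of Lgr5. Clu was highest in cluster 1 (646 cells, 93.5% from day 3) at 317 CPM, beside 146 CPM of Lgr5, and its second highest value, 248 CPM, was in cluster 4 beside the second highest Lgr5, 234 CPM.

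Across the 9 clusters, Pearson's correlation with Lgr5 on the log2 scale was -0.89 for Ly6a and -0.59 for Anxa1, and 0.70 for Clu, 0.79 for Cyr61, 0.43 for Ctgf and 0.33 for Msln. These are descriptions over clusters that mostly come from 1 library each and so share its depth and free RNA. Day 6 clusters were low in Lgr5, Clu, Ctgf, Cyr61 and Msln together.

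**Figure D3:**
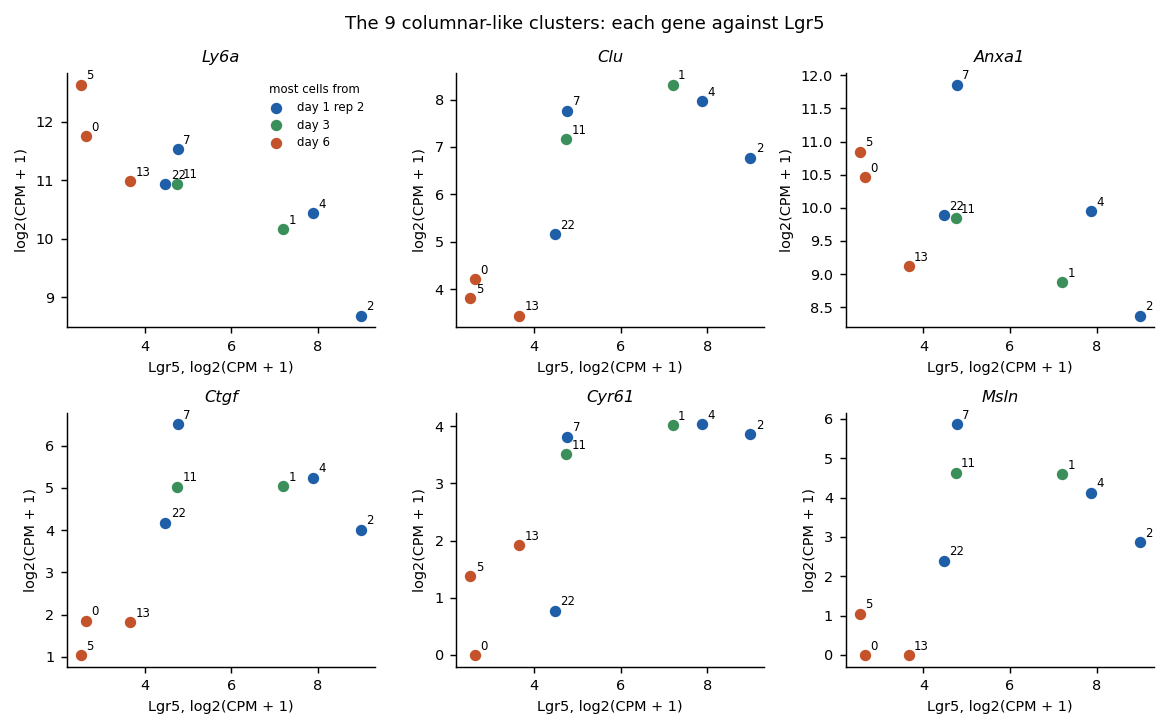
Each of the 9 columnar-like clusters (numbered) by its Lgr5 level and the level of each gene, both as log2(CPM + 1), coloured by the library that gave most of its cells. Ly6a fell from cluster 5 to cluster 2 as Lgr5 rose, while Clu was highest in clusters 1 and 4 and stood at its median, 108 CPM, in cluster 2.

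Single columnar-like cells were then thinned to 1000 UMIs each, which left out 129 shallower cells of day 6, and divided by whether a UMI of Lgr5 was left. There were 74 of 270, 212 of 1237, 99 of 881 and 9 of 1240 Lgr5-positive cells. At full depth, 165, 532, 245 and 44 columnar-like cells of the 4 libraries held a UMI of Lgr5. The Lgr5-negative class therefore includes cells whose Lgr5 UMIs were lost by thinning, and is not a class without Lgr5. The 9 cells of day 6 were fewer than the 10 required of a sum, so day 6 was left out of the edgeR fit and the fit rests on 3 pairs of sums. Before thinning, the median depth of the positive and negative cells was 9630 and 6411 UMIs in the first day 1 replicate, 6322 and 5413 in the second, 2619 and 3094 at day 3, and 6097 and 2378 at day 6. Thinning makes the UMIs per cell equal, but the part of the depth before thinning in the differences below was not tested.

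Ly6a was lower in Lgr5-positive cells, by a log2 fold of -0.99 ± 0.19 (n = 3 pairs, edgeR adjusted p = 0.00267). Its level was 459 against 1107 CPM and 561 against 1463 CPM in the day 1 libraries, 1141 against 1258 CPM at day 3, and 2111 against 4037 CPM at day 6. The ratio of positive to negative level was lowest in the day 1 libraries, and without day 1 replicate 1 or replicate 2 the adjusted p was 0.182 and 0.0574. Anxa1 was lower by -1.08 ± 0.18 (edgeR adjusted p = 0.000911). Its level was 338 against 740 CPM and 575 against 1439 CPM at day 1, 424 against 554 CPM at day 3 and 1556 against 1440 CPM at day 6, where the 9 positive cells held 14 UMIs. Its adjusted p was 0.111 without day 1 replicate 1. In this comparison 3.67% of 5609 genes were called lower and 2.64% higher.

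Clu did not pass, at a log2 fold of 0.10 ± 0.21 (edgeR adjusted p = 0.846). Its level was 203 against 224 CPM and 142 against 163 CPM at day 1, and 374 against 219 CPM at day 3. Ctgf, Cyr61 and Msln held too few counts after thinning to be tested. At full depth, where Lgr5-positive cells are deeper and all 4 libraries entered, Ctgf was lower in Lgr5-positive cells (log2 fold change -1.46, edgeR adjusted p = 0.00248), Msln stood at -0.69 (0.167), Cyr61 at -0.73 (0.288) and Clu at 0.04 (0.906).

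Counted cell by cell, none of the members was absent from Lgr5-positive cells of day 1 or day 3 except Cyr61 in day 1 replicate 1. A Ly6a UMI was found in 35.1% (exact 95% binomial interval 24.4 to 47.1), 37.7% (31.2 to 44.6), 60.6% (50.3 to 70.3) and 88.9% (51.8 to 99.7) of Lgr5-positive cells and in 53.1%, 62.8%, 66.1% and 93.7% of Lgr5-negative cells. Neutrophil-like cells thinned alike (72, 403, 28 and 23 cells) had a share of 62.5%, 57.6%, 67.9% and 91.3% at median full depths of 1419 to 2242 UMIs. They were assumed to hold little Ly6a, which was not tested. The share in Lgr5-positive cells was below theirs in all 4 libraries and is not read as expression. Nor can this show that Lgr5-positive cells lack Ly6a, since neutrophil-like cells were shallower at full depth. The share in Lgr5-negative cells was above the neutrophil-like one only in day 1 replicate 2 and day 6. With 28 and 23 neutrophil-like cells, day 3 and day 6 cannot place differences of a few points. For Anxa1 the shares were 27.0%, 33.5%, 34.3% and 55.6% in Lgr5-positive and 37.8%, 54.9%, 39.4% and 67.3% in Lgr5-negative cells.

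Over the 4 libraries the mean difference in share was -13.3 ± 9.90 percentage points for Ly6a and -12.2 ± 6.81 for Anxa1 (SD, n = 4), lower in Lgr5-positive cells in 4 of 4 libraries for each. The exact two-sided sign permutation test gave for both the smallest p that 4 libraries allow, which lies above 0.05 and was 0.25 after Benjamini-Hochberg adjustment over the 6 members. Msln differed by a mean of -0.74 ± 0.77 points, from only 6 cells with both transcripts, and at day 6 from 0 of 9 positive cells and 1 Msln-positive cell in all, which gives no direction there. At 2000 UMIs Msln was lower in 2 of 4 libraries. Clu was higher in 3 of 4 libraries, by a mean of 2.48 ± 4.38 points (exact p = 0.375), with shares of 17.6% against 15.3%, 11.8% against 11.1%, 27.3% against 18.7% and 0% against 1.62%. The neutrophil-like share of Clu was 6.94%, 7.44%, 25% and 0%. The day 3 share in Lgr5-positive cells was therefore close to the neutrophil-like one, which rests on 28 cells. The exact interval of the 0 of 9 cells at day 6 reaches 33.6%, and covers counting error only. Ctgf differed by -0.69 ± 1.14 points and Cyr61 by 0.24 ± 2.15 points.

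Cells with both transcripts, summed over libraries, numbered 174 for Lgr5 and Ly6a where 233 would be found if both were independent within each library, a ratio of 0.747. The ratio was 0.727 for Anxa1 (130 cells, 179 if independent), 1.18 for Clu (65 cells, 55.2), 0.692 for Ctgf (8 cells, 11.6), 1.29 for Cyr61 (7 cells, 5.42) and 0.677 for Msln (6 cells, 8.86). At least 2 members were found in 23.0%, 23.1% and 39.4% of the Lgr5-positive cells and in 31.6%, 45.0% and 39.3% of the Lgr5-negative cells of the day 1 and day 3 libraries. Most Lgr5-positive cells of day 1 lay in cluster 2. Without that cluster, a choice made after seeing the data that left 5 positive cells at day 6, Ly6a differed by -11.5 points and was lower in 3 of 4 libraries, Anxa1 by -2.85 points with 3 of 4, and Msln by 1.07 points. The edgeR values without it were -0.75 for Ly6a (adjusted p = 0.0277) and -0.86 for Anxa1 (adjusted p = 0.0115).

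**Figure D4:**
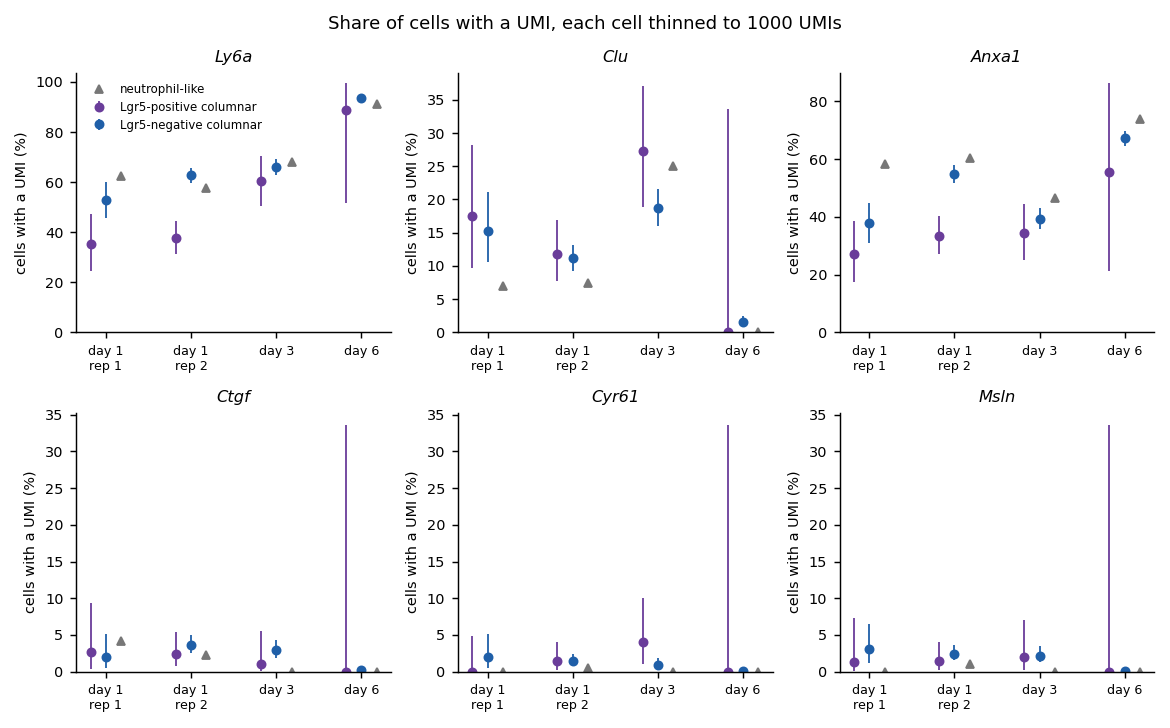
Share of cells with at least 1 UMI of each gene among Lgr5-positive (purple) and Lgr5-negative (blue) columnar-like cells and among neutrophil-like cells (grey), all thinned to 1000 UMIs, by library. Exact 95% binomial intervals are drawn for the purple and blue points only. For Ly6a and Anxa1 the purple points lie below the blue ones in every library, and for Ly6a none of the purple points exceeds the neutrophil-like share.

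Among related lists, 6 of 19 tested fetal-like genes were lower in Lgr5-positive cells and 0 higher, with a median log2 fold of -0.54 beside -0.02 over all genes. They were the EGF receptor ligand Areg (-1.91 ± 0.38), the annexins Anxa3 (-1.15 ± 0.21) and Anxa2 (-0.99 ± 0.17), Sprr1a (-1.14 ± 0.29), Krt7 (-0.72 ± 0.17) and S100a6 (-0.54 ± 0.11). Of 11 tested YAP targets 1 was lower (Myof, -0.91 ± 0.24) and 1 higher (Tead1, 0.84 ± 0.18), and of 12 Hippo pathway genes 1 was higher (Tead2, 1.37 ± 0.31). The stem and WNT list, in which Lgr5 itself is set by the division, held 8 more called genes, all higher, with Smoc2 (1.67 ± 0.17), Tnfrsf19 (1.44 ± 0.31), Notum (1.20 ± 0.18) and Rnf43 (1.05 ± 0.19) in front. In the immediate early list 4 of 12 were lower, Klf6 (-1.20 ± 0.26), Klf4 (-1.18 ± 0.22), Fos (-0.90 ± 0.23) and Ier3 (-0.78 ± 0.19). These 4 genes, which dissociation of tissue can induce, were lower where Ly6a and Anxa1 were, and their part was not tested.

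In the normal colon prepared for stroma, which is 1 library with no replicate, the order of cell types differed by gene. Ly6a was highest in endothelial-like cells (3968 CPM, interval 3681 to 4270), followed by plasma-like (1250), fibroblast-like (1147) and telocyte-like cells (967), and stood at 237 CPM in columnar-like cells. Clu was highest in endothelial-like cells (335 CPM, 255 to 431) and was 6.10 CPM in columnar-like cells. Anxa1 was highest in myofibroblast-like cells (603 CPM) with telocyte-like (455) and fibroblast-like cells (453) next, the last pair with overlapping intervals. Ctgf stood at 2154 CPM in the 262 fibroblast-like and 2827 CPM in the 18 glial-like cells, against 27.3 CPM in columnar-like cells. Cyr61 was spread more widely, at 1647 CPM in glial-like, 1028 in lymphatic endothelial-like, 981 in fibroblast-like, 724 in myofibroblast-like and 245 in columnar-like cells.

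Set beside the treated tumors without a test, columnar-like cells of the normal colon held less Ly6a (237 against 936 to 4159 CPM) and less Anxa1 (121 against 587 to 1229 CPM), but more Cyr61 (245 against 1.76 to 13.9 CPM). Tumor, treatment and dissociation cannot be told apart here. The 18 immediate early genes, many of them induced during dissociation, summed to 20869 CPM in columnar-like cells of the stroma library and to 2013 to 2979 CPM in those of the treated libraries.

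**Figure D5:**
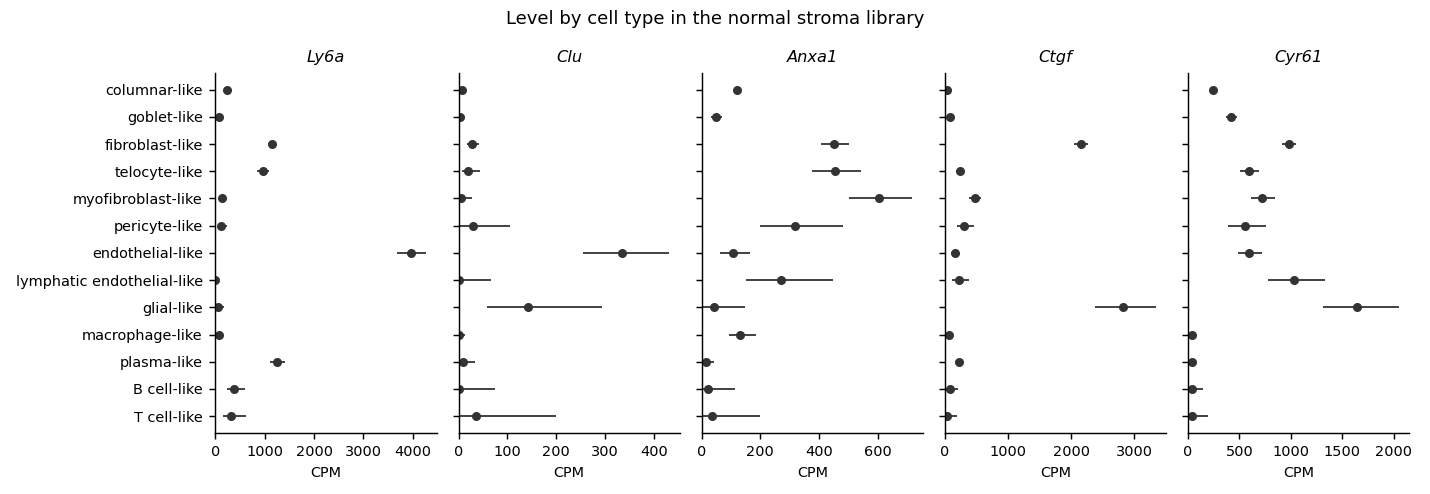
CPM of 5 genes by cell type in the normal stroma library (1 library, 1095 cells), with exact 95% Poisson intervals on the counts. Ly6a and Clu were highest in endothelial-like cells, Anxa1 in myofibroblast-like cells, and Ctgf and Cyr61 in glial-like cells, with fibroblast-like cells next for Ctgf.

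Over 33 sums of cell type and treated library, covering 13 types, the genes with the most similar pattern were named for each member, as a description of sums that share libraries. Ly6a went with Sprr2a3 (Pearson's r 0.82), Cib1 (0.80) and Uqcr11 (0.79). Anxa1 went with Gsta4 (0.85), Tgm1 (0.82) and Il33 (0.81). Clu went with Thbs2 (0.81), Tead2 (0.80) and Igfbp4 (0.80). Ctgf went with Sparc (0.88), Prkcdbp (0.81) and Lama5 (0.79), Cyr61 with Lamb1 (0.90), Cav1 (0.89) and Col18a1 (0.89), and Msln with Ascl2 (0.78), Aprt (0.72) and Krt23 (0.72). Among the members the highest correlations were between Clu and Msln (0.68), Clu and Ctgf (0.62) and Ctgf and Cyr61 (0.57). Ly6a and Anxa1 had 0.35, and Ly6a had negative values with the other 4.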

How the data were processed

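The deposited files hold raw UMI counts per cell and gene, 1 file per library, which the authors made with dropEst on GRCm38. No normalization had been applied. Cells were kept here at 500 genes or more and at most 15% mitochondrial UMIs, as the authors state. Before this filter, all barcodes summed to 5132360 and 16904947 UMIs at day 1, 6659486 at day 3, 16079367 at day 6 and 5814641 in the stroma library. The treated libraries together, and the stroma library alone, were clustered with leidenalg 0.10.2 (20 principal components of 2000 variable genes, resolution 1). The 112 members, Lgr5 and listed genes present in the files were held out. No doublets were removed. Scrublet called 3, 3, 6 and 0 treated and 7 stroma cells, too few to count as having worked.

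Clusters were named -like from marker lists, where markers counted at 2 times the other cells, or, for epithelium, at 1.25 times the non-epithelial cells with at least 3 markers. The second limit was relaxed after a stricter one left cluster 2 unnamed. Counts were summed per library and class (at least 10 cells) and tested with edgeR 4.0.16 (TMM, filterByExpr, quasi-likelihood, Benjamini-Hochberg over all genes, threshold 0.05) in R 4.3.3. Standard errors come from the fold change and its F value. DESeq2 1.42.0 was an alternative. The tests were run on simulated counts with a fixed dispersion, where libraries differed only in depth and in planted changes. That check does not cover the spread between libraries seen here. Named genes are the members, Lgr5, up to 4 called genes per list and direction with the largest fold (otherwise the 2 smallest p), and the 3 genes most correlated with each member by log2(CPM + 10) over sums of at least 20 cells with a mean of at least 20 CPM. Krt7 and S100a6 were named in addition, after their values were seen. A gene that the rule names is not reported here. The members and lists were chosen with earlier results of these data known. Alternatives were other clustering resolutions, left-out libraries, the library structure as a block, no filter on low counts, no cells in the top 6% of doublet scores, and other depths and stem classes.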

Additional observations from a re-analysis of the deposited data

How the results depend on the processing

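Counts of genes called by edgeR at an adjusted p of 0.05 depended on the processing. Late against early in columnar-like cells, the count of 0 became 695 in DESeq2, 506 with the library structure as a block, 1176 without the filter on low counts, and 0 to 1747 without each library in turn. In squamous-like cells the same alternatives, in that order, gave 19, 11, 94 and 10 to 57. Squamous against columnar, 2281 genes became 1243 to 1846 without each library. For Lgr5-positive cells, 354 became 2270 at full depth, 57 in DESeq2, 553 with the stem class from Lgr5, Ascl2 or Smoc2, 994 at 2000 UMIs, 90 without cluster 2, and 2 to 476 without each library. The 5 calls of the interaction became 8 and 0 at resolutions 0.5 and 2, 80 in DESeq2, 401 without the filter, 0 without cluster 2, 73 without cluster 1, and 0 to 947 without each library. The cause was not tested, beyond fewer libraries or genes where these were left out. Leaving out a library leaves some groups with 1 library, assumed to vary like the others.

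Members that turned direction were not called in the main comparison. Columnar late against early, Msln became 0.047 in DESeq2 and 0.020 without top doublet scores, and Anxa1 -0.21 without cluster 2. Without each library, the log2 fold ranged from -3.50 to 0.75 for Clu, -0.27 to 1.00 for Anxa1, -3.81 to 0.46 for Ctgf, -2.45 to 0.071 for Cyr61 and -4.50 to 0.98 for Msln. In squamous-like cells Clu became -0.32 with the structure block, and the range was -2.57 to 1.93 for Clu, -0.27 to 0.64 for Ly6a and -2.49 to 0.66 for Anxa1. Squamous against columnar it was -0.47 to 0.14 for Ly6a and -0.49 to 0.98 for Ctgf. Clu in Lgr5-positive cells became -0.062 without the filter and -0.25 without cluster 1, with a range of -0.28 to 0.40.

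By count, 3 members (Ly6a, Anxa1 and Msln) had a lower share in Lgr5-positive cells of every library, and 0 without cluster 2. This set is not stable, since the day 6 value of Msln rests on 0 of 9 cells, and at 2000 UMIs Ctgf was lower in 4 of 4 libraries and Msln in 2 of 4. The difference in share became 0.0277 points for Ctgf at resolution 2, -0.359 for Cyr61 at 2000 UMIs, with -0.723 to 1.01 without each library, and 1.07 for Msln without cluster 2. Members lower in squamous-like cells in every library went from 2 to 1 at resolution 0.5, without top doublet scores and without cluster 1. Removing clusters 1 and 2 was chosen after seeing the data. With the structure as a block, Ly6a in columnar-like cells had a log2 fold of 1.52 (edgeR adjusted p = 0.0935) and Lgr5 -2.19 (adjusted p = 0.0337). Depth limits Ctgf, Cyr61 and Msln most.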

Other observations

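The members were also measured in secretory tumor cells, which entered no comparison. In Paneth-like cells, a metaplastic type in the colon, Ly6a stood at 1859 CPM in day 1 replicate 1, 2574 in day 1 replicate 2 and 1107 at day 3, above columnar-like cells in both day 1 libraries and below them at day 3. Goblet-like cells held Ly6a at 1308 and 2056 CPM at day 1 and 1970 CPM at day 6. Enteroendocrine-like cells held less Ly6a than columnar-like cells in the 3 libraries where they were counted, with 304, 313 and 1326 CPM.

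Other Ly6 genes of the epithelium had patterns of their own. Ly6d, a gene of stratified epithelium, stood at 829 to 1410 CPM in squamous-like and 57.6 to 174 CPM in columnar-like cells of the treated libraries. Ly6e stood at 935 to 1700 CPM in columnar-like cells with no order by day.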
